A study of Homo sapiens with 12 samples.

Results

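TT-Seq and 4sU-Seq both sequence RNA that K562 cells made while 4-thiouridine (4sU) was present, and they differ in whether the RNA was sheared before the labelled molecules were pulled out. The comparison uses 4 of the series' 12 samples: 2 TT-Seq and 2 4sU-Seq libraries, chosen by their labels. The other 4 RNA libraries, 2 of Total RNA-Frag-Seq with 2 of Total RNA-Seq, carry the same shearing contrast without purification and are given beside it; 4 ChIP samples were not used. K562 is an established human erythroleukaemia line. In all 4 RNA groups the cells were exposed to 500 µM 4sU for 5 min, the total RNA groups included, and RNA was extracted with TRIzol. TT-Seq RNA was sheared by sonication and 4sU-labelled fragments were then purified; 4sU-Seq RNA was purified unsheared; Total RNA-Frag-Seq RNA was sheared and not purified; Total RNA-Seq RNA was neither sheared nor purified. Libraries were made with a NuGEN whole-blood RNA kit, and the design text calls the duplicates biological.

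4sU is a uridine analogue that enters growing RNA chains and gives them a thiol by which they can be captured. A polymerase that was already within a gene when the label arrived adds it to the 3' part of a chain whose 5' part is older and unlabelled. Capture of whole molecules takes the older part along, whereas capture after shearing takes fragments that themselves carry label. The question asked of the data is therefore where along genes the 2 protocols differ. It was asked in fragments counted in 200 bp bins on each strand, over the 21874 transcribed units that the authors called from TT-Seq; 7810 of these are in the mRNA class, and 7097 units of any class could be given a gene symbol. The borders of the units thus rest on the TT-Seq libraries that are compared here.

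Depth was 68913035 and 71317148 binned fragments in TT-Seq, 54295993 and 47092776 in 4sU-Seq, and 25909021 to 43136737 in the total RNA libraries. Units held 88.9% and 89.1% of the fragments in TT-Seq, against 85.9% and 86.0% in 4sU-Seq. All 10 K562 markers, among them the erythroid regulators GATA1 and KLF1, the fetal globins HBG1 and HBG2 and BCR, lay above 1 CPM per kb of gene in each labelled library (1.92 to 45.8, both strands summed). Of 21 markers of other cell types, 16 lay below 1 in each labelled library, and CD2, MS4A1, PAX5 and MPO were at or near 0. The other 5, SPI1, EPCAM, KRT8, KRT18 and KRT19, reached up to 11.4 CPM per kb; their part in the results was not tested.

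Over the start and the end of coding genes, 4sU-Seq carried about 2 times the relative signal of TT-Seq, and past the gene end it carried less. These windows were chosen after the values along the units had been seen. They cover 2955 to 2959 coding genes with a RefSeq span of at least 20 kb. None had another coding or long non-coding gene within 10 kb on the same strand, genes wholly inside the span not counted. Each window's density (fragments per bp) is divided by that of the middle segment when the gene is cut into 3 equal segments. In the first 1 kb TT-Seq had median ratios of 1.01 and 1.11, while 4sU-Seq had 1.85 and 2.15. Unsheared total RNA stood at 2.16 and 2.19, and sheared total RNA at 1.53 in both libraries. Both TT-Seq libraries lay below both 4sU-Seq libraries in 2276 of 2958 genes (76.9%). The ratio was lower in TT-Seq in 1967 genes (66.5% of those tested) and higher in 44 (1.49%) in edgeR's quasi-likelihood test (calls throughout are at a threshold of 0.05 after Benjamini-Hochberg adjustment), with a median log2 difference of -0.89 (a ratio of 0.541).

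**Figure D1:**
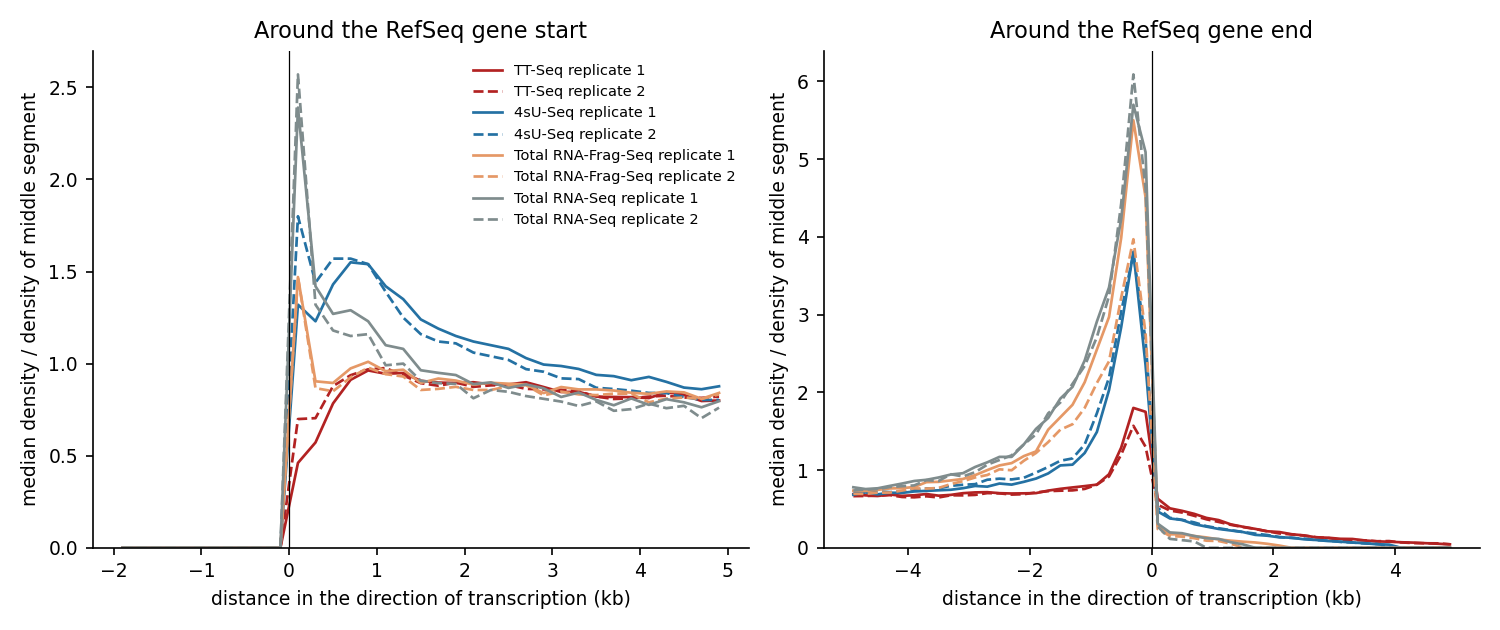
Median over isolated coding genes of fragment density in 200 bp bins, divided by the density of the gene's middle segment, against distance from the RefSeq start (left) and end (right), 1 line per library. TT-Seq (red) rises from 0.461 and 0.699 in the first bin to about 0.96 near 0.9 kb, where 4sU-Seq (blue) is at 1.54 in both libraries; at the end 4sU-Seq peaks at 3.81 and 3.78 and TT-Seq at 1.80 and 1.57, and after the end the order turns.

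The excess of 4sU-Seq at the start was local. In the plot of density around gene starts the first 200 bp stood at 1.32 and 1.80 in 4sU-Seq against 0.461 and 0.699 in TT-Seq. At 4.9 kb the values were 0.877 and 0.803 against 0.8 and 0.821, and the libraries of the groups overlapped. Median density lay at 0 in all 8 libraries at each bin of the 2 kb upstream of the start. The start difference was of similar size in each length class: the median log2 difference was -0.85 in genes of 20 to 50 kb, -0.90 in those of 50 to 150 kb and -0.98 in longer ones.

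HSPA4, a chaperone of the Hsp110 family on chromosome 5, gives an example of the start difference. Its first 1 kb stood at 0.935 and 0.915 times its middle segment in TT-Seq and at 4.38 and 5.41 times in 4sU-Seq (log2 difference -2.40, edgeR adjusted p = 2.32e-13). NUDT4, which hydrolyses inositol pyrophosphates, stood at 0.411 and 0.441 in TT-Seq, against 1.72 and 1.98 in 4sU-Seq (-2.12, edgeR adjusted p = 2.61e-12). CLIC4, a chloride intracellular channel protein, stood at 0.613 and 0.674 against 2.21 and 1.97 (-1.70, edgeR adjusted p = 9.1e-09). In each of these genes the libraries of a group lay close together and the groups did not overlap. Not every gene followed: POLR2A, the largest subunit of RNA polymerase II, stood at 4.90 and 4.89 in TT-Seq, against 4.46 and 5.90 in 4sU-Seq (-0.06, edgeR adjusted p = 0.79), and SOX6, a transcription factor of the erythroid lineage, at 4.65 and 5.16 against 4.80 and 5.11 (-0.01, edgeR adjusted p = 0.986).

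The last 2 kb of the gene showed a difference in the same direction. TT-Seq had median ratios to the middle segment of 1.41 and 1.25, and 4sU-Seq had 2.60 and 2.84. Sheared total RNA stood higher, at 4.39 and 3.47, and unsheared total RNA at 5.10 and 5.12. The ratio was lower in TT-Seq than in 4sU-Seq in 2201 of 2959 genes (74.4%) and higher in 68 (2.3%), in all 76.7%, with a median log2 difference of -1.02. PLBD2, a lysosomal protein, had ratios of 32.0 and 32.3 in TT-Seq, against 189 and 183 in 4sU-Seq. PTPN23, a protein of endosomal sorting, had 1.87 and 2.1 against 19.1 and 19.5, the log2 difference being -3.28 (edgeR adjusted p = 6.4e-55). TFRC, the transferrin receptor through which erythroid cells take up iron, had 1.47 and 1.12 against 4.66 and 4.14. With the borders of the authors' units in place of the RefSeq span this count turned: 237 genes were higher and 182 lower in TT-Seq, with a median of 0.33. The mRNA class units that carry a symbol end a median of 4.21 kb past the gene.

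In the 5 kb after the gene end TT-Seq held more. Median ratios were 0.331 and 0.313 for TT-Seq, 0.241 and 0.260 for 4sU-Seq, and 0.124 to 0.176 over the total RNA libraries. TT-Seq was higher in 991 of 2955 genes (33.5%) and lower in 233 (7.88%), with a median log2 difference of 0.33. This count is less firm than those within the gene: it fell to 672 without TT-Seq replicate 1, 813 without TT-Seq replicate 2 and 713 without 4sU-Seq replicate 1, from 1224 in both directions, and limma on log2 ratios called 99.

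Median values of 4sU-Seq lay between those of TT-Seq and of unsheared total RNA in all 3 windows. Gene by gene, the 4sU-Seq mean lay between the other 2 in 58.0% of genes in the first 1 kb, 79.9% in the last 2 kb and 64.1% after the end.

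Shearing without purification gave smaller median differences within the gene and one of opposite sign after it. The first 1 kb was lower in Total RNA-Frag-Seq than in unsheared total RNA in 966 of 2958 genes (32.7%) and higher in 2 (0.0676%), with a median of -0.52. The last 2 kb was lower in 668 of 2959 (22.6%) and higher in 5 (0.169%), median -0.35. The stretch after the end was lower in 95 of 2955 (3.21%) and higher in 1 (0.0338%), in all 3.25%, median -0.29. These counts lean on single libraries. The first fell from 968 in both directions to 547 without Total RNA-Frag-Seq replicate 1, 569 without Total RNA-Seq replicate 1 and 502 without Total RNA-Seq replicate 2. The second went from 673 to 1396 and 274 without Total RNA-Frag-Seq replicates 1 and 2, and to 176 and 145 without Total RNA-Seq replicates 1 and 2. The third fell from 96 to 22 both without Total RNA-Frag-Seq replicate 2 and without Total RNA-Seq replicate 1.

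The difference between shearing labelled and shearing total RNA was itself tested in the same model. In the first 1 kb it was below 0 in 582 genes (19.7%) and above 0 in 67 (2.27%), with a median of -0.37. In the last 2 kb it was below 0 in 1377 (46.5%) and above 0 in 68, in all 48.8%, with a median of -0.67. After the end it was above 0 in 559 (18.9%) and below 0 in 47 (1.59%), with a median of 0.62. Of these, 649 at the start became 380 without Total RNA-Seq replicate 1, and 606 after the end became 351 without 4sU-Seq replicate 1, 274 without TT-Seq replicate 1 and 258 without Total RNA-Seq replicate 1. Which bins are exonic was not known here, so mature and nascent RNA at the 2 gene ends cannot be told apart.

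Cut into 3 equal segments, most mRNA class units did not show a 5' excess in 4sU-Seq. The 3' shift is the log2 ratio of density in the last segment to that in the first, TT-Seq minus 4sU-Seq, so that values below 0 mean relatively more signal toward the 3' end in 4sU-Seq. Over mRNA class units the TT-Seq libraries had median log2 ratios of -0.54 and -0.60, and the 4sU-Seq libraries had -0.31 and -0.27. Sheared total RNA gave 0.09 and -0.09, and unsheared total RNA 0.15 and 0.14. With 2 libraries a group an exact permutation test on these medians cannot go below p = 0.333 (two-sided). Unit by unit, edgeR's quasi-likelihood test called 6758 of 12771 units of all classes (52.9%), 2568 with a positive shift (20.1%) and 4190 with a negative one (32.8%). Among the 7653 mRNA class units tested, 1147 were positive and 3483 negative (45.5%), with a median of -0.26.

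**Figure D2:**
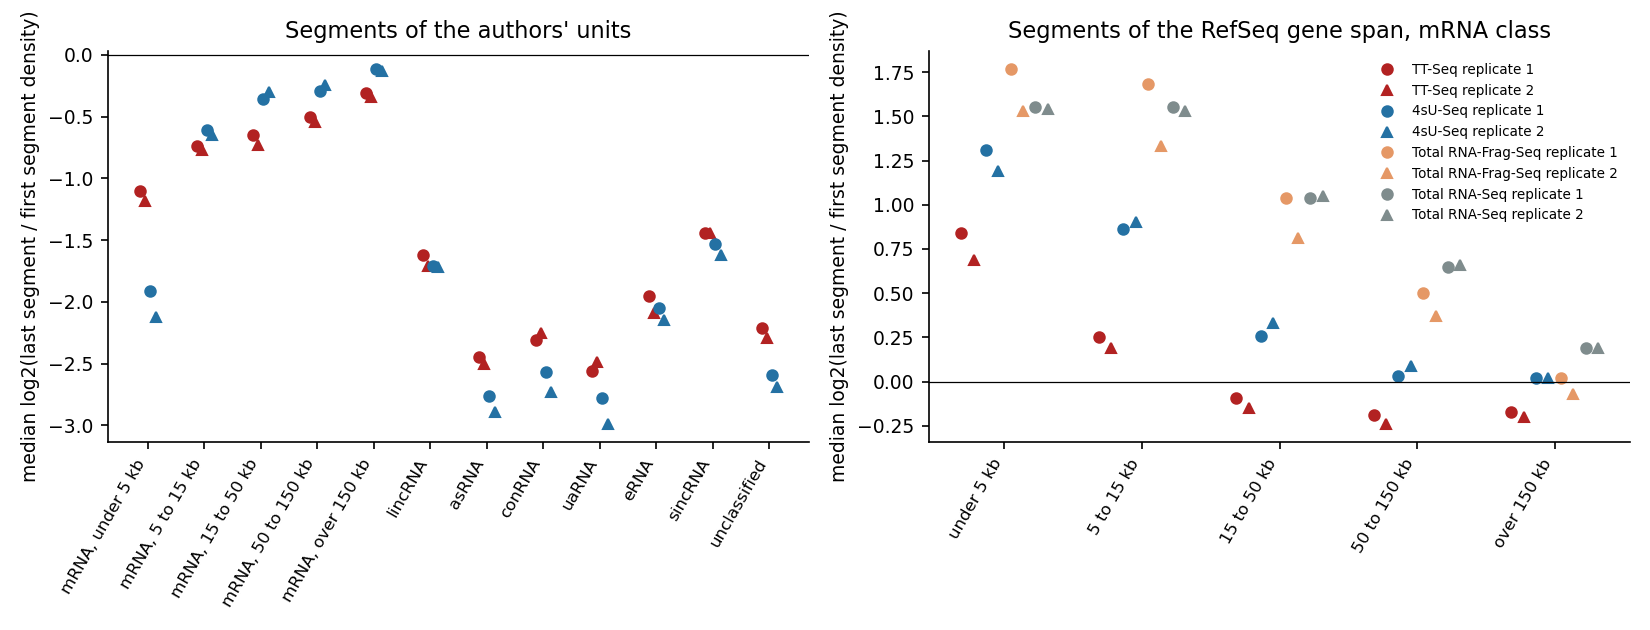
Median over units of log2(last segment / first segment density) for each library, for the authors' units by class and length (left, labelled libraries) and for RefSeq gene spans of mRNA class units by gene length (right, all 8 libraries); circles are replicate 1 and triangles replicate 2. On the left 4sU-Seq (blue) is above TT-Seq (red) for mRNA class units from 5 kb up and below it in units under 5 kb, asRNA, conRNA, uaRNA and unclassified units; on the right it is above in each length class.

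Positive and negative calls were balanced differently by class and length, as the plot of library medians shows, though no test compared the classes. The shift was positive in 731 and negative in 369 of 3045 units in the 5 classes the authors gave to unannotated non-coding transcripts (median 0.24): antisense (asRNA), convergent (conRNA), upstream antisense (uaRNA), enhancer (eRNA) and short intergenic (sincRNA). In asRNA it was positive in 339 and negative in 146 of 1312, with library medians of -2.45 and -2.50 in TT-Seq, against -2.76 and -2.89 in 4sU-Seq. In uaRNA it was positive in 63 and negative in 22 of 229. Over the 5 classes together, units of 5 to 15 kb had 341 positive and 51 negative of 1219 (median 0.46). Those of 50 to 150 kb had 67 and 105 of 349 (median -0.09), and those over 150 kb 17 and 28 of 73 (median -0.06). Unclassified units had 605 positive and 241 negative of 1640 (median 0.35), and long intergenic RNAs had 48 and 44 of 222. Class names are the authors': units matched here to JUND, EEF1A1 and TAL1 stand in the sincRNA, asRNA and eRNA classes.

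Short mRNA class units had more positive than negative shifts within the authors' borders. Under 5 kb, 26 of 63 were positive and 9 negative (median 0.59), against 240 and 310 of 1018 at 5 to 15 kb, and 105 and 372 of 743 over 150 kb. In units under 15 kb that carry a symbol, a median of 20.1% of the unit lay past the RefSeq end of the gene, and in 172 of 758 this held the whole last segment. Measured over segments of the RefSeq span instead, 647 of 6551 genes were positive (9.88%) and 3202 negative (48.9%), in all 58.8%, with a median of -0.34. Gene spans under 5 kb then had 13 positive and 64 negative of 144 (median -0.55), and those over 150 kb 70 and 221 of 514 (median -0.13).

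**Figure D3:**
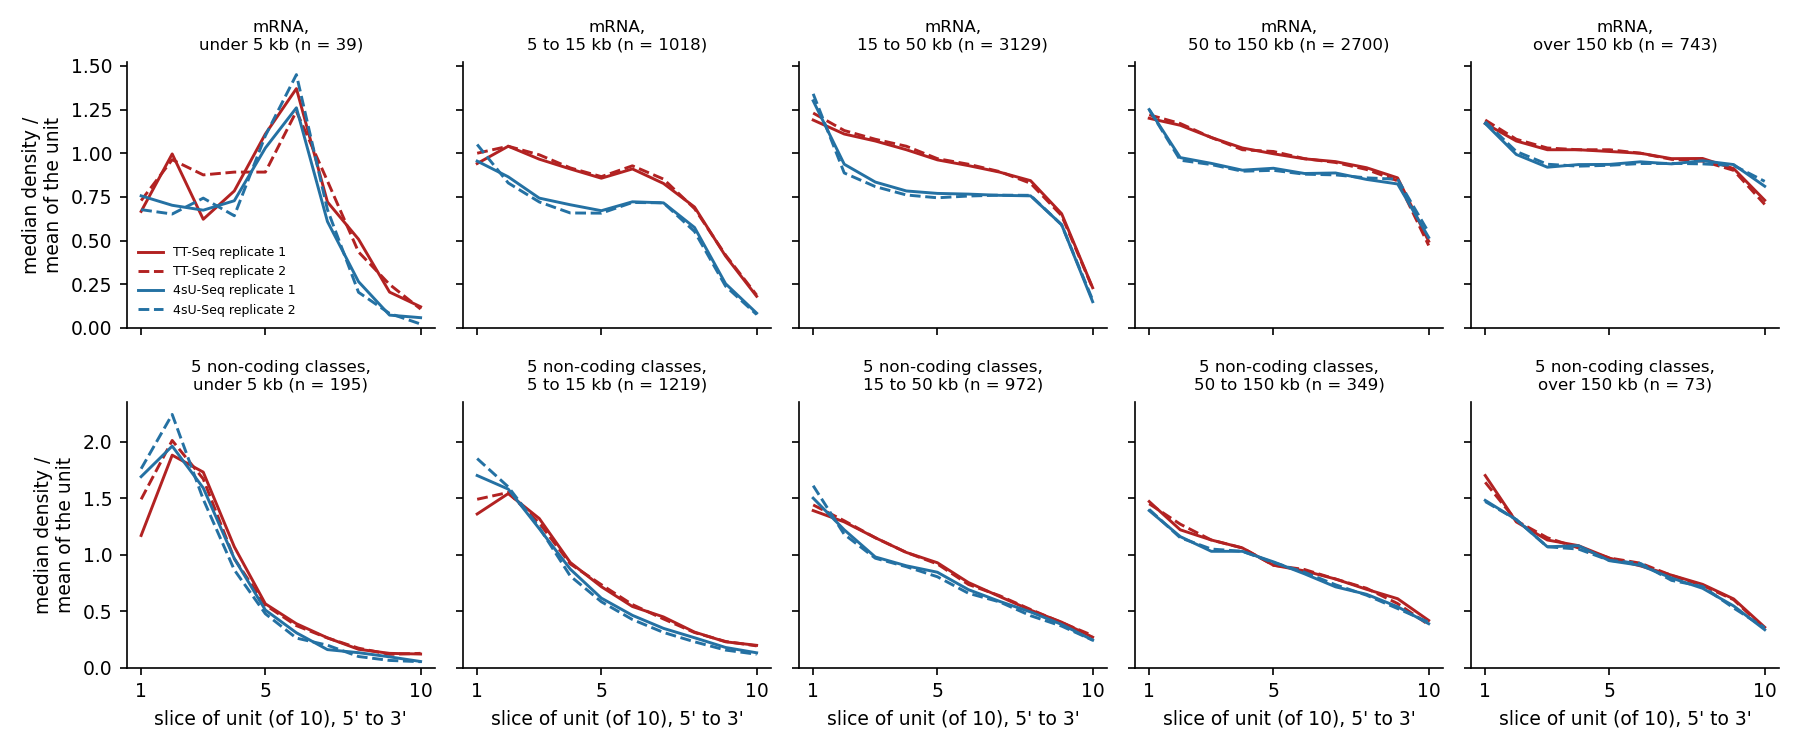
Median density in 10 equal slices of the unit, 5' to 3', relative to the unit's own mean, for the 4 labelled libraries, by length, in mRNA class units (top) and the 5 non-coding classes (bottom). In mRNA class units of 15 to 50 kb 4sU-Seq starts above TT-Seq (1.3 and 1.34 against 1.19 and 1.23) and drops below it from the second slice on.

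Cut into 10 equal slices, mRNA class units of 15 to 50 kb and shorter non-coding units had the 4sU-Seq excess in the first slice. In mRNA class units of 15 to 50 kb the first slice stood at 1.3 and 1.34 times the unit's mean in 4sU-Seq and at 1.19 and 1.23 in TT-Seq. In the second slice the values were 0.937 and 0.887 in 4sU-Seq and 1.11 and 1.13 in TT-Seq, and TT-Seq medians stayed higher to the last slice. Medians were taken slice by slice, so those of a library need not average 1 and do not show where most signal lies. By 3 segments the same units had median log2 ratios, last over first, of -0.36 and -0.30 in 4sU-Seq against -0.65 and -0.73 in TT-Seq. In non-coding units of 5 to 15 kb the first slice stood at 1.70 and 1.85 in 4sU-Seq and 1.36 and 1.49 in TT-Seq, and the last at 0.133 and 0.120 against 0.199 and 0.194. In 1533 mRNA class units of at least 100 kb, the first 1 kb stood at 1.25 and 1.51 times the unit's mean in 4sU-Seq and 0.679 and 0.782 in TT-Seq. At 5 to 10 kb it stood at 1.05 and 1.03 against 1.18 and 1.19. In mRNA class units over 150 kb the first slice did not separate the groups (1.17 and 1.18 in 4sU-Seq, 1.17 and 1.19 in TT-Seq), and the last stood at 0.811 and 0.839 in 4sU-Seq against 0.731 and 0.707.

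Shearing of total RNA changed the segments of fewer units. Sheared against unsheared total RNA gave 298 positive (2.33%) and 1112 negative (8.71%) of 12771, and 132 and 1022 in the mRNA class. That total of 1410 became 862 without Total RNA-Frag-Seq replicate 2, 477 without Total RNA-Seq replicate 1 and 469 without Total RNA-Seq replicate 2, and limma on log2 ratios called 10, of which 8 were positive. The difference between the 2 shearing contrasts was positive in 1204 units (9.43%) and negative in 2287 (17.9%), in all 27.3%; without Total RNA-Seq replicate 1 the sum of 3491 became 2271.

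In the 10 mRNA class genes with the lowest shifts, the ratio of last to first segment was higher in 4sU-Seq than in TT-Seq. SSR2, a subunit of the translocon-associated complex, lies in a unit at chr1:156004792-156020913 on the minus strand (GRCh38). Its density ratio, last segment over first, was 1.13 and 1.24 in TT-Seq, against 7.16 and 8.87 in 4sU-Seq, a shift of -2.75 (SE 0.14, edgeR adjusted p = 1.37e-10). PLBD2, in a unit at chr12:113358591-113395068 on the plus strand, had ratios of 5.48 and 5.73 against 35.1 and 27.6, a shift of -2.47 (SE 0.10, edgeR adjusted p = 1.13e-11). SRRM2, a scaffold of nuclear speckles where splicing factors gather, lies at chr16:2751413-2774384 on the plus strand. Its ratios were 1.20 and 1.43 in TT-Seq, against 5.64 and 6.94 in 4sU-Seq, a shift of -2.25 (SE 0.10, edgeR adjusted p = 3.45e-11). The middle segment of SRRM2 was denser than its last, at 2.55 and 2.78 times the first in TT-Seq and 13.3 and 13.9 times in 4sU-Seq. In none of these 3 did the groups overlap, but with the outer 2 of 5 segments in place of the outer 2 of 3 the shift of SSR2 was 0.16.

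The other 7 were ALG3, a mannosyltransferase of N-glycan assembly, YIF1B, PTPN23, ILF2, LSM4, CYB5R3 and MUC4. With 5 segments LSM4 (0.09), ALG3 (-0.24) and YIF1B (-0.07) also lost their call or sign, so that with SSR2 the result for 4 of the 10 depends on this choice. LSM4 belongs to the ring that binds U6 snRNA and decapped mRNA, and CYB5R3 reduces cytochrome b5. Their shifts lay between -2.14 (CYB5R3) and -2.90 (MUC4, a membrane mucin). Over RefSeq spans 9 of the 10 still shifted toward the 5' end in TT-Seq. The exception was MUC4, whose unit covers only the 5' part of the gene and whose shift over the span was -0.12 (edgeR adjusted p = 0.593). Its first 1 kb also ran against the majority, at 1.88 and 1.67 times its middle segment in TT-Seq, against 0.171 and 0.362 in 4sU-Seq.

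**Figure D4:**
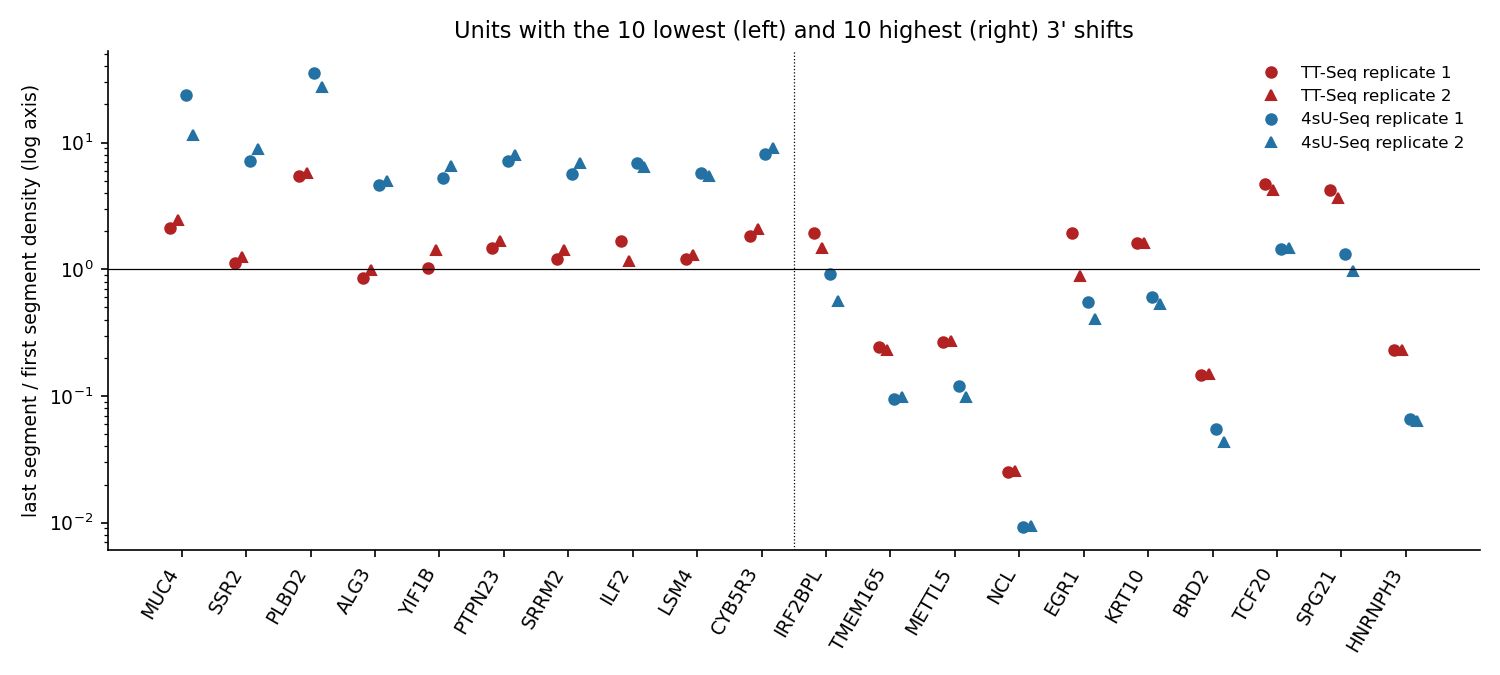
Density in the last segment over the first segment of the unit (log axis) in each labelled library, for the mRNA class genes with the 10 lowest shifts (left of the dotted line) and the 10 highest (right); circles are replicate 1, triangles replicate 2. 4sU-Seq (blue) lies above TT-Seq (red) in the left genes, for instance 7.16 and 8.87 against 1.13 and 1.24 in SSR2, and below it in the right ones, for instance 0.0663 and 0.0639 against 0.231 and 0.229 in HNRNPH3.

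The 10 genes with the highest shifts had the reverse order. HNRNPH3, an RNA-binding protein of splicing, lies in a unit at chr10:68331474-68349962 on the plus strand. Its last-over-first ratio was 0.231 and 0.229 in TT-Seq, against 0.0663 and 0.0639 in 4sU-Seq, a shift of 1.82 (SE 0.14, edgeR adjusted p = 7.4e-09). TCF20, a transcriptional coregulator, lies in a unit of 196 kb at chr22:42137991-42333593 on the minus strand, with ratios of 4.68 and 4.21 against 1.45 and 1.48 (1.60, SE 0.11, edgeR adjusted p = 2.15e-09). BRD2, a bromodomain protein that binds acetylated histones, had 0.146 and 0.15 against 0.0546 and 0.0436. NCL, nucleolin, had 0.0251 and 0.0255 against 0.00916 and 0.00936. EGR1, an immediate early transcription factor, had 1.94 and 0.879 against 0.555 and 0.402, the replicates of TT-Seq lying furthest apart among the 10. Its shift of 1.47 was no longer called when only the 4 labelled libraries were fitted or with bins wholly inside the unit (1.11), and it was 0.89 and 2.04 without TT-Seq replicates 1 and 2.

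The remaining 5 were SPG21, KRT10, METTL5, TMEM165 and IRF2BPL, with shifts of 1.24 to 1.79. METTL5 methylates 18S ribosomal RNA, and TMEM165 is a Golgi protein needed for glycosylation. In these 10 genes the units ran a median of 5.40 kb past the gene, 31.3% of their length, against 12.1% in the 10 lowest, and in 4 of them the whole last segment lay past the gene. Over RefSeq spans 6 of the 10 kept a positive call: TCF20 (1.33), BRD2 (0.40), EGR1 (0.84), METTL5 (1.44), TMEM165 (1.11) and IRF2BPL (0.60). HNRNPH3 (-0.45), SPG21 (-1.10) and NCL (-0.81) turned to a negative call, and KRT10 was not called (0.35).

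SUGCT and SOX6 were among the longest well covered mRNA class genes. SUGCT, a mitochondrial CoA transferase, had a shift of -0.38 (edgeR adjusted p = 0.000655) and ratios of 1.03 and 1.00 against 1.36 and 1.3. SOX6 had 0.961 and 0.928 against 0.862 and 0.803, and its shift of 0.18 (edgeR adjusted p = 0.0472) was lost without TT-Seq replicate 1 or 2 or 4sU-Seq replicate 2, with DESeq2, with limma, with bins wholly inside the unit, with a filter at 10 fragments and with 5 segments (0.06).

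In level, short mRNA class units were lower and long ones slightly higher in TT-Seq. The level is the log2 ratio of TT-Seq to 4sU-Seq in scaled fragments per unit, so it compares shares of a library and not amounts per cell. Both groups are K562 cells given the same 4sU dose and time, and they differ in shearing before purification. Of 19318 units tested, edgeR called 9361 (48.5%): 3822 higher (19.8%) and 5539 lower (28.7%) in TT-Seq, of which 181 and 1201 by at least 2-fold. In mRNA class units of 5 to 15 kb 47 were higher and 769 lower of 1084 (median -0.67). In those over 150 kb 379 were higher and 124 lower of 743 (median 0.14). The over 150 kb units held 27.4% of fragments in units in both TT-Seq libraries, 24.3% and 23.4% in 4sU-Seq, and 18.7% in both Total RNA-Seq libraries. The 5 non-coding classes ran the other way, from a median of 0.26 under 5 kb to -0.28 over 150 kb.

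**Figure D5:**
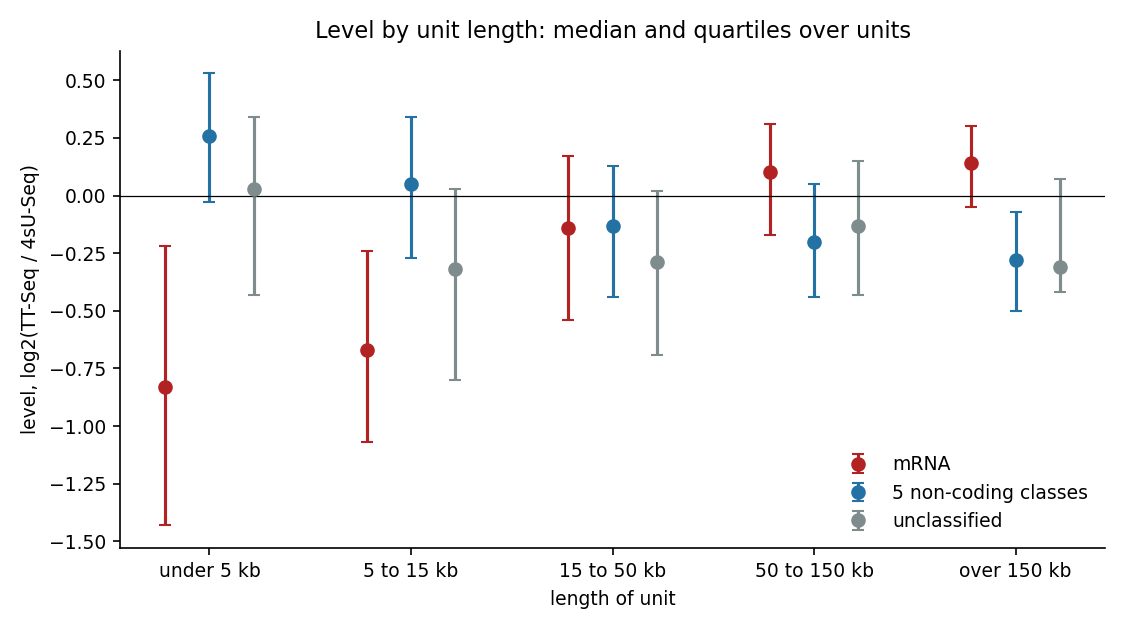
Level difference, log2(TT-Seq / 4sU-Seq), by unit length for mRNA class, the 5 non-coding classes and unclassified units; points are medians over units and bars the quartiles. mRNA class medians climb from -0.83 under 5 kb to 0.14 over 150 kb, whereas the non-coding medians fall from 0.26 to -0.28.

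The enhancer class had the highest median level of the classes. Of 3257 eRNA units 1896 were tested, and 303 were higher and 127 lower in TT-Seq (median 0.31). Over all units tested 19.8% were higher and 28.7% lower. As a whole, eRNA units held 1.3% of fragments in units in both TT-Seq libraries, against 1.67% and 1.57% in 4sU-Seq. The units were called from TT-Seq, and what this adds to their level there was not tested. Long intergenic RNAs had 19 higher and 129 lower of 298 (median -0.21), and unclassified units 248 and 975 of 2481 (median -0.18). asRNA, conRNA and uaRNA units had medians of 0.11, 0.13 and 0.12.

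The lowest levels belonged to genes whose 4sU-Seq signal was several times that of TT-Seq. PLBD2 had 77.5 and 89.4 CPM in TT-Seq, against 462 and 399 in 4sU-Seq, 5.17-fold lower in TT-Seq. GPX4, the peroxidase that protects membrane lipids, had 7.51 and 8.76 against 36.5 and 46.2 CPM, 5.07-fold lower. LRRC45 had 5.25 and 6.07 against 20.9 and 33.6 CPM, and SLC75A1 3.98 and 4.75 against 18.1 and 26.3. MUC4 had 26.8 and 29.9 against 218 and 94.6 CPM, the 4sU-Seq replicates lying far apart. Its level of -2.46 was not called without TT-Seq replicate 1 or 2, nor with the 4 labelled libraries alone (-2.48). It was -1.74 without 4sU-Seq replicate 1 and -2.95 without replicate 2. SRRM2, named for its shift, had 194 and 227 CPM in TT-Seq, against 900 and 827 in 4sU-Seq and 1140 and 1290 in Total RNA-Seq, a level of -2.04 (SE 0.08, edgeR adjusted p = 3.69e-09).

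The highest levels were smaller in size. ARRDC3, an arrestin-domain adaptor, had 264 and 246 CPM in TT-Seq, against 106 and 119 in 4sU-Seq, a level of 1.18 (SE 0.06, edgeR adjusted p = 1.16e-09). NUDT4 had 425 and 432 against 195 and 218 CPM. CLIC4, HSPA4 and C16orf87 had levels of 1.04, 0.91 and 0.89. In ARRDC3, CLIC4 and HSPA4 the segments of the unit did not pass the test, with shifts of -0.02, 0.05 and -0.03. Over the RefSeq span ARRDC3 was positive (0.37, edgeR adjusted p = 0.00609) and CLIC4 negative (-0.43, edgeR adjusted p = 0.00168). HSPA4 was not called there either (-0.04). The unit of CLIC4 stops short of the gene end.

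The gene lists were not matched for unit length, with which level varied. They are read against all units tested. Of these 19.8% were higher and 28.7% lower in level, and 20.1% were positive and 32.8% negative in shift. Over RefSeq spans 9.88% of 6551 genes were positive and 48.9% negative. In the first 1 kb 66.5% of 2958 genes were lower in TT-Seq and 1.49% higher (median -0.89). Members named are mostly those with the largest shifts in their list. Cytosolic ribosomal protein genes, among the most abundant mRNAs of a cell, had 47 named units of 85 listed genes. Of these 34 were lower and 2 higher in level (median -0.57). Their median unit length was 12.9 kb, and among all mRNA class units of 5 to 15 kb 769 of 1084 were lower (median -0.67). By unit segments 31 of the 47 ribosomal protein units were positive and 4 negative (median 0.82). Over the gene span 16 were positive and 18 negative of 44 (median -0.06). RPL29 had last-over-first ratios of 0.0143 and 0.0161 in TT-Seq, against 0.00188 and 0.00381 in 4sU-Seq over its unit, a shift of 2.52, and -2.43 over its span. RPS4X had a shift of 2.13 over the unit and 0.43 over the span. Ribosomal protein and histone genes have near-identical copies, so the split of their reads is uncertain.

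Immediate early and other short-lived regulators, whose mRNAs turn over fast, had 23 units of 44 listed genes. Of these 11 were lower and 3 higher in level (median -0.34), and 14 of 21 tested were positive and 0 negative in shift (median 0.90). Over the gene span 7 were positive and 7 negative of 20. JUND, a subunit of AP-1, had 47.7 and 52.2 CPM in TT-Seq, against 99.5 and 126 in 4sU-Seq, and a shift of 2.40 over the unit that was -0.11 and not called over the span (edgeR adjusted p = 0.719). IER5 had a positive shift by either measure, 1.50 over the unit and 2.27 over the span.

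Genes of glycolysis had more of the relative 4sU-Seq signal in the last segment. Of 12 units of 19 listed genes, 9 were negative and 1 positive (median -0.99), and over the gene span 11 were negative and 0 positive (median -1.14). LDHA, which converts pyruvate to lactate, had ratios of 3.38 and 3.13 in TT-Seq, against 11.1 and 8.45 in 4sU-Seq (-1.57, SE 0.10, edgeR adjusted p = 1.15e-09). PKM, pyruvate kinase, had 1.90 and 1.76 against 5.10 and 5.18 (-1.49). In level 7 of the 12 were lower and 1 higher (median -0.22). LDHB, the other lactate dehydrogenase subunit, had a start ratio of 1.34 and 1.13 against 1.70 and 1.68 and an end ratio of 4.62 and 3.57 against 14.3 and 12.8.

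Erythroid genes had 13 units of 40 listed. Of these 9 were lower and 2 higher in level (median -0.42), and over the gene span 8 of 12 were negative and 1 positive (median -0.53). Over the unit 3 were positive and 4 negative (median -0.05), UROD (1.14) and LDB1 (1.08) being positive there and -1.23 each over the span. TFRC had 376 and 392 CPM in TT-Seq, against 234 and 236 in 4sU-Seq (0.71, SE 0.05, edgeR adjusted p = 7.67e-09). Its last-over-first ratios were 0.308 and 0.239 against 0.817 and 0.733, over a unit that runs 14.3 kb past the gene. The shift of TFRC was -1.51 over the unit and -0.75 over the span. With the outer 2 of 5 segments it was -0.41 and not called. UROD, an enzyme of haem synthesis, had 23.5 and 22.3 against 50 and 54.7 CPM. BCR, part of the fusion gene of this line, had 591 and 635 against 719 and 680 CPM and a shift of -0.35. TAL1, a haematopoietic transcription factor, had 41.6 and 42.4 against 56.6 and 55.9 CPM.

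Genes of the transcription machinery moved in both directions. Of 26 units of 43 listed polymerase II and elongation genes, 11 were higher and 10 lower in level (median -0.07), and 7 were positive and 11 negative in shift over the unit, against 4 and 13 over the span (median -0.33). POLR2A had 98.4 and 116 CPM in TT-Seq, against 248 and 207 in 4sU-Seq, with ratios of 2.40 and 2.78 against 11.6 and 9.04 (-1.99). POLR2H and POLR2L, small subunits of polymerase II, had unit shifts of 2.38 and 1.22 and span shifts of -0.10 and 0.08. Over the first 1 kb 9 of 12 genes of this list were lower in TT-Seq and 0 higher (median -0.81). Over all genes tested 66.5% were lower (median -0.89).

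Very large genes, many at common fragile sites, had 16 units of 50 listed, and 11 were higher and 2 lower in level (median 0.32). Their median unit length was 418 kb. Among all mRNA class units over 150 kb 379 were higher and 124 lower of 743 (median 0.14). In shift 1 of the 16 very large genes was positive and 7 were negative (median -0.11). The first 1 kb was lower in 10 of 14 and higher in 0 (median -0.85), against 66.5% lower over all genes tested (median -0.89). FTO, an RNA demethylase, had ratios of 0.965 and 0.903 in TT-Seq, against 1.50 and 1.42 in 4sU-Seq, and its first 1 kb stood at 1.59 and 2.08 times its middle segment against 3.26 and 3.23. BABAM2, of the BRCA1-A complex, had 0.733 and 0.742 against 1.24 and 1.19, and VTI1A, a SNARE of vesicle fusion, 0.586 and 0.639 against 0.939 and 0.918. In each of the 3 the groups did not overlap.

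Non-coding and snoRNA host genes were mostly lower in level. Of 7 units of 18 listed nuclear or long-lived non-coding RNAs, 5 were lower and 1 higher (median -0.81). In shift 5 were positive and 2 negative over the unit, and 3 and 4 over the span. MALAT1, a nuclear speckle RNA, had 3540 and 3200 CPM in TT-Seq, against 7810 and 6460 in 4sU-Seq (-1.08, SE 0.08, edgeR adjusted p = 1.45e-07). MEG3, an imprinted RNA, had 476 and 517 against 1220 and 1230 CPM. Its last-over-first ratio was 0.380 and 0.371 against 0.207 and 0.198, and its shift was positive over the unit (0.89) and over the span (1.02). Of 22 units of 41 listed snoRNA host genes, 14 were lower and 4 higher (median -0.46). In shift 13 were positive and 3 negative over the unit (median 0.85), but 5 and 8 of 20 over the span (median -0.17). HSPA8, a constitutive chaperone that hosts snoRNAs, went from 2.65 over the unit to -1.01 over the span. EEF1A1, a translation elongation factor, had 330 and 318 against 795 and 826 CPM, and shifts of 2.40 over the unit and 0.70 over the span. Replication-dependent histones, whose mRNAs lack a poly(A) tail, had 11 units of 68 listed, with 1 higher and 4 lower in level (median -0.19).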

How the data were processed

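RNA of K562 cells was sequenced in 8 libraries, 2 per group. The deposited values are fragment counts on each strand in bins of 200 bp, made by the authors, who called 21874 units from TT-Seq with STAN, as their accompanying description says. STAR 2.3.0, Bowtie2 2.1.0 and SAMtools are named with hg38 (GRCh38) per the submitters' processing notes, with no role stated, and no source says how multiply matching reads were handled. The exon and intron tables were not used here, as their rows could not be matched to units.

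Bins were summed by midpoint and strand over each unit and over its 3 equal segments. Symbols came from RefSeq (Jaccard overlap of at least 0.5, or 0.8 of the gene covered and starts within 3 kb). Tests were made on counts by edgeR 4.0.16 (R 4.3.3, glmQLFit, robust, all 8 libraries), with Benjamini-Hochberg adjustment at 0.05. Level tests used TMM scaling. Segment and window tests used no TMM, as a term for each library cancels level and scaling. Segments needed 9 bins per unit and a mean of 50 fragments in the outer 2; library ratios used a pseudocount of 0.5. Totals ran from 25909021 to 71317148 fragments. The fits were tested on simulated data.

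Named genes are the 10 highest and 10 lowest shifts (mRNA class, called, at least 200 fragments per outer segment), the 5 highest and 5 lowest levels, the 3 longest with at least 2000 fragments, up to 4 per list by largest shift, and markers; window values are given for genes so named, and not every gene so chosen is reported here. Members and lists were chosen with earlier results of these data known. Alternatives were DESeq2 1.42.0, limma 3.58.1, other scalings, filters, borders and left-out libraries.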

Additional observations from a re-analysis of the deposited data

Results flagged for a closer look

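The effect of shearing differed between labelled and total RNA, by a test of the difference in the same edgeR model, in 3491 of 12771 units by segments, in 649 of 2958 genes in the first 1 kb, in 1445 of 2959 in the last 2 kb and in 606 of 2955 in the 5 kb after the end. Among named genes, 3 also moved in opposite directions in the 2 contrasts, each past the threshold. SPG21 had a 3' shift of 1.79 on shearing labelled RNA and -0.67 on shearing total RNA, a difference of 2.46 (edgeR adjusted p = 1.53e-06). Its unit runs 18.3 kb past the gene. Over the RefSeq span its shift on shearing labelled RNA was -1.10 (edgeR adjusted p = 6.63e-05), so the opposite direction holds only within the borders of the unit. VTI1A had -0.60 and 0.34, a difference of -0.94 (edgeR adjusted p = 2.52e-05). TAL1 had -0.42 and 0.65, a difference of -1.07 (edgeR adjusted p = 0.000784). Over the RefSeq span the labelled shifts of VTI1A (-0.68) and TAL1 (-0.48) kept their sign. With the outer 2 of 5 segments that of TAL1 was 0.11, and with DESeq2 it was -0.42 and not called. The labelled shift of TAL1 was also not called without TT-Seq replicate 1 (-0.43), TT-Seq replicate 2 (-0.42) or 4sU-Seq replicate 1 (-0.31).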

How the results depend on the processing

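The counts of calls between TT-Seq and 4sU-Seq kept their direction under most settings; the exceptions follow, and the cause was not tested. Every setting for the windows was chosen after seeing the data. RefSeq spans in place of units gave 3849 segment calls of 6551 tested, against 6758 of 12771 units, and a median library difference in the mRNA class of -0.37 against -0.28. The same spans turned the sign in HNRNPH3 (-0.45), SPG21 (-1.10), NCL (-0.81), RPL29 (-2.43), RPL15 (-0.25), RPS16 (-0.43), JUND (-0.11), UROD (-1.23), LDB1 (-1.23), POLR2H (-0.10), MEPCE (-0.11), HSPA8 (-1.01), SNHG10 (-0.03), TUG1 (-0.84) and NORAD (-0.33). The outer 2 of 5 segments turned it in SSR2 (0.16), LSM4 (0.09), PGAM1 (0.71) and TAL1 (0.11). Over 59 named genes, 688 gene and setting pairs kept the call and direction of the shift, 47 lost the call and 19 reversed. For shearing of total RNA, the 1410 segment calls became 887 with DESeq2 and 683 over RefSeq spans (fewer features tested). They became 856 with the libraries of the comparison only and 469 to 2030 leaving out 1 library. With limma 10 units were called, 8 of them positive, whereas most of the 1410 were negative. Of these 10, 4 were also called by edgeR with the same sign, and none with the opposite sign. The 3491 segment calls for the difference became 2081 with DESeq2, 2314 over RefSeq spans (fewer features tested), 1756 with limma and 2271 to 3899 leaving out 1 library. With the authors' borders, calls in the last 2 kb became 419 for labelled RNA, 11 for total RNA and 103 for the difference, the first and last with the opposite majority. With limma, calls became 268 for the difference at the start, 234 for total RNA in the last 2 kb, and after the end 99, 7 and 193 for labelled RNA, total RNA and the difference. Leaving out 1 library gave 502 to 651 and 380 to 754 calls at the start for total RNA and the difference, 145 to 1396 for total RNA in the last 2 kb, and 672 to 978, 22 to 117 and 258 to 578 after the end for labelled RNA, total RNA and the difference. Same-numbered libraries deviated together weakly (correlations 0.0995 and 0.016), so the numbers were not taken as pairs; with the replicate block, calls were 9609 in level, 6898 in shift, 2083 at the start, 2271 in the last 2 kb and 1193 after the end, and no count of calls moved by over 1.5 times.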
